A study of Rattus norvegicus with 34 samples.

Results

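The genes described here encode glycoproteins of the extracellular matrix: the fibulins Fbln1 and Fbln5, fibronectin (Fn1), Sparc, hemicentin 2 (Hmcn2), the nidogens Nid1 and Nid2, and the laminin chains Lamb1 and Lamc1. They are 9 of the 14217 genes that the array's annotation names by a probe set of their own, and they were read on 13 probe sets. The group was chosen by measured values, in that Fbln1 had read lower in the high-dose groups while Dcn (decorin) and collagens had read higher in T1800. Those high-dose readings are therefore described without a test, and tests are kept for the 500 ppm groups and for the dose steps, in which Fbln1 is again only described.

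RNA came from the testis of individual Wistar Han rats at postnatal day 92, with 1 Affymetrix rat genome array per animal. All animals were fed from gestation day 6 to postnatal day 92. Control diet held 0 ppm of a triazole fungicide (Control, 6 arrays). The other diets held myclobutanil at 500 ppm (M500, 3 arrays) or 2000 ppm (M2000, 5 arrays), propiconazole at 500 ppm (P500, 4 arrays) or 2500 ppm (P2500, 5 arrays), or triadimefon at 500 ppm (T500, 4 arrays) or 1800 ppm (T1800, 4 arrays). The high dose thus differed between the compounds, and the compounds were compared only at 500 ppm. The labels number each animal but name no litter, so littermates, if any, could not be accounted for.

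In the testis, a basement membrane lies under the Sertoli and germ cells of each seminiferous tubule, next to the contractile peritubular cells that help to build it. Laminins form its sheet, nidogens link laminin to collagen IV, and fibulins, hemicentins and Sparc bind to these networks, while fibronectin and fibulins also form fibres of the looser tissue between the tubules. These proteins are read by cells through integrins and other receptors and are cleaved by metalloproteases.

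All values are scores, a log-like quantity of unknown base, so differences are in score units and carry no fold. The tissue matched its label: the 6 spermatid markers averaged 3.96 to 4.34 over the arrays and the 2 measured epididymis markers of 5 averaged -0.197 to -0.0942. However, P2500 replicates 02 to 04 carried liver transcripts, with albumin (Alb) at 3.89 to 4.15 against 0.132 to 1.65 in Control. In 5 arrays (Control 02 and 06, M500 04, M2000 05 and P2500 05) the 3′ beta-actin probe set exceeded the 5′ one by more than 1.4, a measure of RNA quality called the actin gap here. The leading probe set of a gene, the one with the highest mean score, lay above bioB, the spiked-in control RNA of lowest concentration, in 29 of 31 arrays for Nid2, 27 for Sparc and 2 for Nid1. It lay below bioB on all 31 arrays for the other 6 genes, so most of these glycoproteins were measured at low signal. The bioB level was that of its lowest probe set on each array. The share of all probe sets below it was not counted, so low signal is not shown to be particular to these genes. In bulk tissue, fewer cells of a type and less RNA per cell cannot be told apart.

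**Figure D1:**
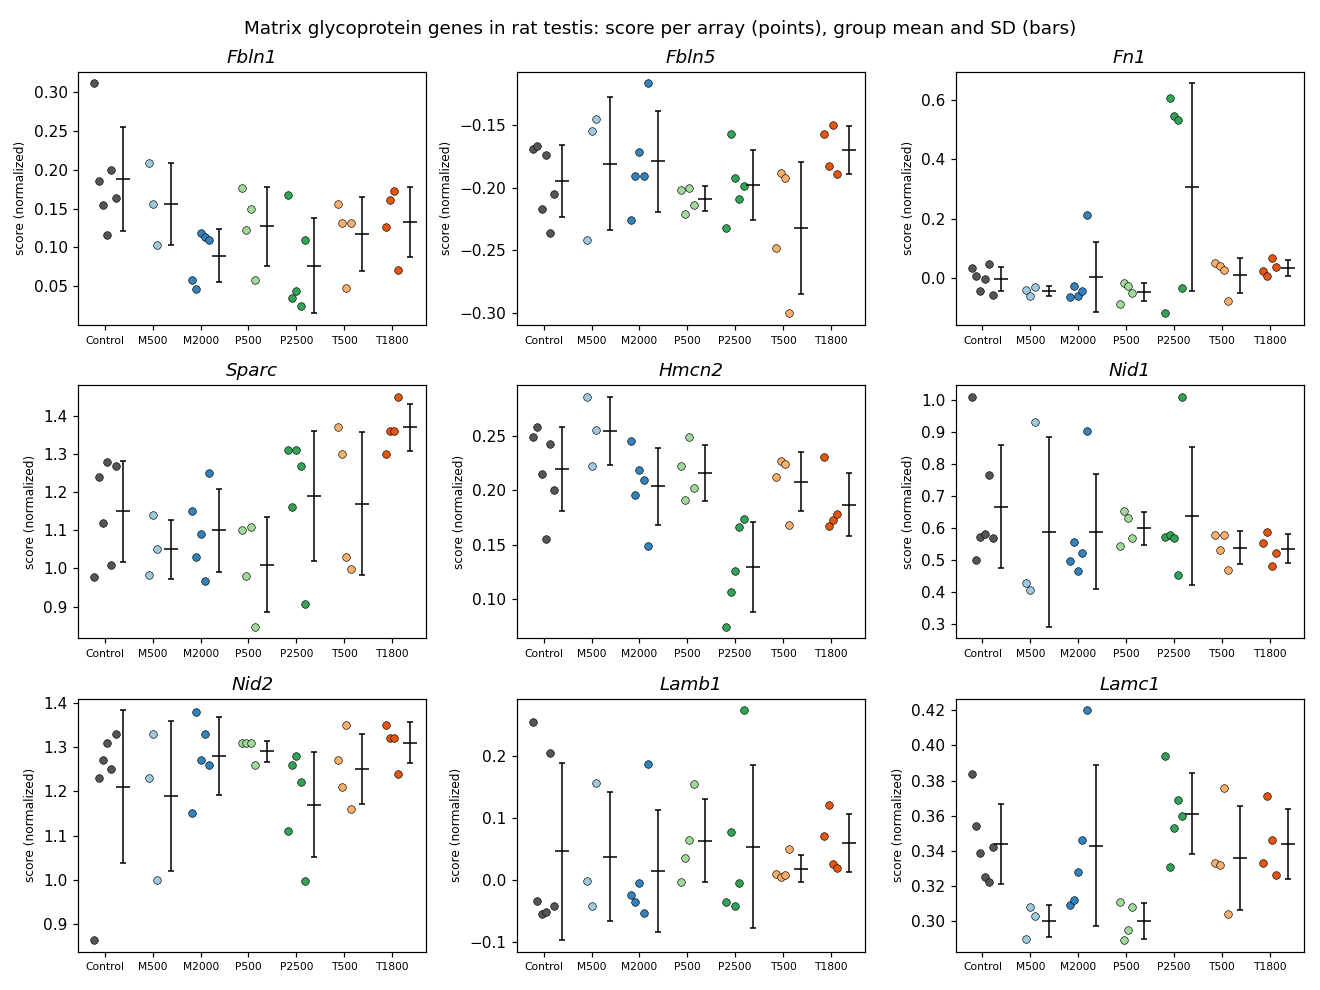
Normalized score of the leading probe set of each of the 9 genes (y axis, score units) in the 7 groups (x axis). Points are arrays in replicate order, and the dash with bars is the group mean ± SD. Fbln1 had its highest array in Control (0.311), Fn1 was high in 3 of 5 P2500 arrays (0.531 to 0.606), and the 4 Sparc values of T1800 (1.3 to 1.45) lay above all 6 Control values.

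The RefSeq promoters of 6 of the 9 genes were at hand (Fbln5, Sparc, Hmcn2, Nid1, Lamb1 and Lamc1, build GRCr8). Those of Sparc, Hmcn2 and Lamc1 are printed because these genes, with Fn1, had the smallest p-values of the group in the propiconazole dose step. Each is the 250 bases before the gene's start, 5′ to 3′ on the gene's strand, at chr10:40038817-40039066 (minus strand) for Sparc, chr3:34985996-34986245 (plus strand) for Hmcn2 and chr13:68051987-68052236 (minus strand) for Lamc1. Capitals mark GGAGG or its reverse complement CCTCC, a GGA-box motif that was chosen after the Sparc sequence was read.
Sparc: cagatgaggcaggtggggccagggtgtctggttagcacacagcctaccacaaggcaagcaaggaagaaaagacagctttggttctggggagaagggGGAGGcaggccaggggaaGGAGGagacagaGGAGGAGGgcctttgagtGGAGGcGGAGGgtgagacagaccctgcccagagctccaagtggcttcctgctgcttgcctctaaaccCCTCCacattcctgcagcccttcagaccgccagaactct
Hmcn2: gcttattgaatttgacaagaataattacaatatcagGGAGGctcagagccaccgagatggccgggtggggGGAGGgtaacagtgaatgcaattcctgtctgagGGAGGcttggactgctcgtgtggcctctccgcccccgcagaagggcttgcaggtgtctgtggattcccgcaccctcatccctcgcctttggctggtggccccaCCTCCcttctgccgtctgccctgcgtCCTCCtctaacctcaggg
Lamc1: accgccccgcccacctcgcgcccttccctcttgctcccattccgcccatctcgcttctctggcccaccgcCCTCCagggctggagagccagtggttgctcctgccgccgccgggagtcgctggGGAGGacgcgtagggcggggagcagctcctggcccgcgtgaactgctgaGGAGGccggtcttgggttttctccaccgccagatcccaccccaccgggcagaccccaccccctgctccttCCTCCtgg
Matches of GGAGG on either strand, counted with overlaps, numbered 7 in Sparc, 5 in Hmcn2 and 4 in Lamc1. Of 33469 promoter windows of this length, 64.7% held at least 1 match, 1.52% held at least as many as Sparc, 5.25% as many as Hmcn2 and 9.9% as many as Lamc1. The Nid1 window held 9, a number reached by 0.532% of windows. The GC box GGGCGG was found 5 times in Lamc1 (reached by 1.72% of windows), once in Hmcn2 and not in Sparc, against 30.5% of windows with at least 1. A match is a string of letters and was not tested as a binding site.

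None of the 9 genes passed an adjusted p of 0.05 in any of the 10 tested comparisons (limma, Benjamini-Hochberg over 31042 probe sets). In the same comparisons 0% of all probe sets passed in 9 of them and 0.00322% (1 probe set, of Arhgef28) in T1800 against T500. At an unadjusted p under 0.05, 1 of 9 genes lay in M500 against Control (9% of all probe sets), 1 in P500 (3.36%), 1 in T500 (7.62%) and 2 in the mean of the 500 ppm groups (6.71%). None of the 9 did so between compounds at 500 ppm, where the shares of all probe sets were 7.48%, 6.69% and 5.08%. For the dose steps, with Fbln1 set aside, the counts were 0 of 8 for myclobutanil (7.55%), 4 of 8 for propiconazole (3.83%; Fn1, Sparc, Hmcn2 and Lamc1) and 2 of 8 for triadimefon (1.97%; Fbln5 and Sparc). The propiconazole step is where other settings made calls: 3 genes with array weights (Fn1, Sparc and Lamc1, beside 855 probe sets in all) and 2 without the 5 arrays of large actin gap (Fn1 and Hmcn2, beside 426). P2500 replicates 02 to 04 carried liver transcripts, and without those arrays none of the 9 genes was called. Only replicates 01 and 05 of P2500 were left in that setting, so its lack of calls decides little. The step was -0.0298 there for Fn1 (0.351 over all arrays) and 0.0988 for Sparc (0.18). For Hmcn2 it was -0.0923 (-0.0873 over all arrays) and for Lamc1 0.0767 (0.061). The high-dose arrays of the dose steps took part in choosing the group, so the dose-step counts are not independent of that choice. The Control arrays took part as well, so the counts against Control are not fully independent of it either.

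In direction, 7 of 9 genes had a lower mean than Control in M500 and in P500 and 6 of 9 in T500. The median difference of the 9 was -0.0326, -0.0426 and -0.0125, beside medians over all probe sets of 0.00014, 0.000708 and -0.00119. These 3 comparisons share the Control arrays and are not independent of each other.

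**Figure D2:**
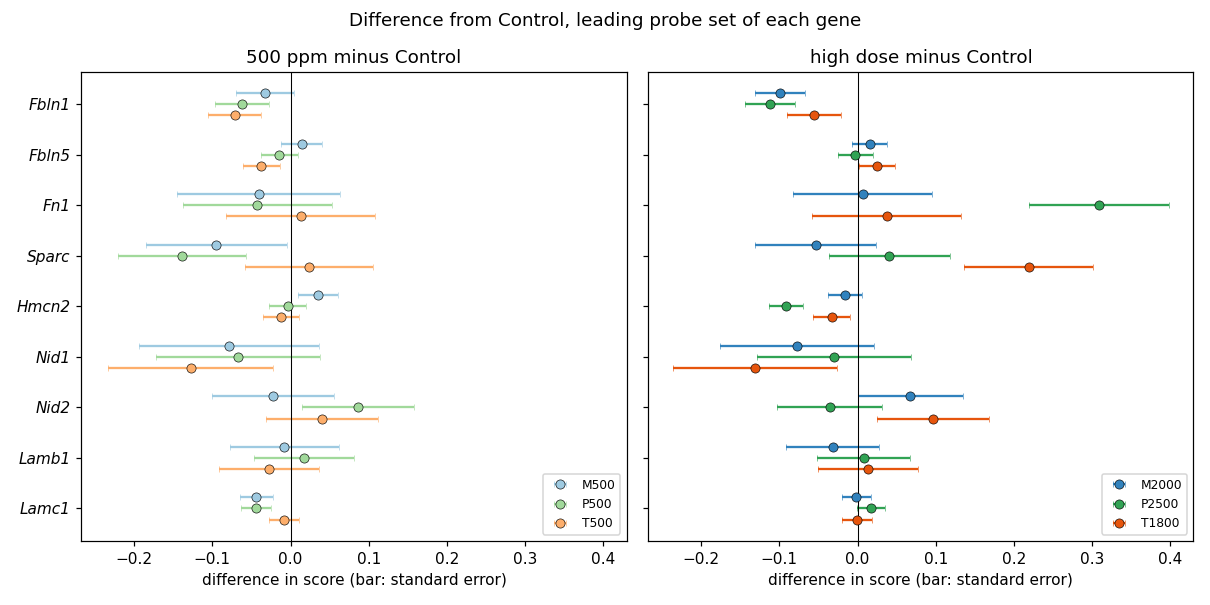
Difference from Control in score units (x axis) for the leading probe set of each gene (y axis), at 500 ppm on the left and at the high dose on the right; points are differences and bars their standard errors. The Fbln1 points lie left of 0 in all 6 groups, from -0.112 (P2500) to -0.0326 (M500), and Fn1 in P2500 (0.309) and Sparc in T1800 (0.219) lie farthest to the right. All 6 groups are set against the same Control arrays, which took part in choosing Fbln1.

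Fbln1 encodes fibulin-1, a secreted calcium-binding glycoprotein that binds fibronectin, laminin and nidogen. Its Control scores ran from 0.116 to 0.311 with a mean of 0.188 ± 0.0666 (SD, n = 6). The 5 M2000 arrays read 0.058, 0.0467, 0.118, 0.114 and 0.11 (0.0893 ± 0.034), and the 5 P2500 arrays 0.168, 0.036, 0.0442, 0.0246 and 0.11 (0.0766 ± 0.0612). The 4 T1800 arrays read 0.126, 0.161, 0.172 and 0.0716 (0.133 ± 0.0452). In M2000 and in P2500, 4 of 5 arrays lay below the lowest Control array and in T1800 1 of 4 did, so that every high-dose group overlapped Control on normalized scores. On the scores as deposited all 5 M2000 arrays (0.0317 to 0.103) lay below the lowest Control array (0.109). The share of all probe sets that did so was not counted.

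As a description of the values that chose the gene, the Fbln1 difference from Control was -0.0991 (SE 0.032) in M2000, -0.112 (SE 0.032) in P2500 and -0.0557 (SE 0.0342) in T1800, which is less than the SD of Control. The 3 lowest P2500 arrays, replicates 02 to 04, were those with liver transcripts, and on them Fbln1 lay below all the other 28 arrays, as did 0.0515% of all probe sets. On the scores as deposited M2000 replicate 02 (0.0317) lay below 1 of them (0.0345). Without them the P2500 difference was -0.0492 (SE 0.0416), and the part of the liver transcripts in the lower score was not tested. The highest Fbln1 score of all, 0.311, was Control replicate 02, which also had the largest actin gap (1.67). Without that array the differences were -0.0746 (SE 0.0295) in M2000, -0.0874 (SE 0.0295) in P2500 and -0.0312 (SE 0.0313) in T1800.

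The animal numbers in the labels begin with 2 or with 3. Control held 3 animals of each kind, T1800 held 3 whose number begins with 3, and every other array was of an animal whose number begins with 2. Fbln1 averaged 0.217 ± 0.083 (n = 3) in the Control animals of the first kind and 0.16 ± 0.0418 (n = 3) in those of the second. Among animals whose number begins with 2, the difference from Control was -0.128 (SE 0.0395) in M2000 and -0.14 (SE 0.0395) in P2500. Among those whose number begins with 3, it was -0.025 (SE 0.0378) in T1800. The lower Fbln1 score of M2000 and P2500 was thus seen within the first kind of animal number, and that of T1800 was small within the second. The 3 Control arrays of the first kind read 0.311 (replicate 02, of large actin gap), 0.186 and 0.154, so their mean rests in part on replicate 02. P2500 here keeps the 3 arrays with liver transcripts.

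The Fbln1 score at 500 ppm, which did not choose the gene, was 0.209, 0.156 and 0.103 in M500 (0.156 ± 0.0532, n = 3). It was 0.176, 0.122, 0.15 and 0.0583 in P500 (0.127 ± 0.0505, n = 4) and 0.156, 0.132, 0.0475 and 0.132 in T500 (0.117 ± 0.0476, n = 4). All 3 groups lay lower than Control on average and all overlapped it. The same Control arrays served when the gene was chosen, so these differences from Control are not independent of that choice. The difference from Control was -0.0326 (SE 0.0374, adjusted p = 0.87 by limma) in M500, -0.0619 (SE 0.0342, adjusted p = 1) in P500 and -0.0717 (SE 0.0342, adjusted p = 0.65) in T500. For the mean of the 500 ppm groups it was -0.0554 (SE 0.0269, adjusted p = 0.74), which became -0.0309 (SE 0.0253) without Control replicate 02 and -0.084 (SE 0.0353, adjusted p = 0.72) among animals whose number begins with 2, with that Control array kept. It was -0.00253 (SE 0.0217) with array weights, -0.013 (SE 0.0275) without the 5 arrays of large actin gap and -0.0166 (SE 0.0176) on the mean of both probe sets, so little of it remained in those settings. None of these passed the threshold.

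Ordered by mean, Fbln1 read Control, M500, T1800, P500, T500, M2000 and P2500 from high to low, and neighbours in that order overlapped in every case. At the matched dose of 500 ppm the compounds did not separate. P500 minus M500 was -0.0293 (95% interval -0.112 to 0.0536, adjusted p = 0.96 by limma), T500 minus M500 was -0.0391 (-0.122 to 0.0439, adjusted p = 0.77) and T500 minus P500 was -0.00976 (-0.0866 to 0.0671, adjusted p = 0.97). The intervals against M500 reach to the size of the P2500 difference from Control, so these p-values do not show that the compounds act alike. From 500 ppm to the high dose the Fbln1 score moved by -0.0666 (SE 0.0386) for myclobutanil, -0.05 (SE 0.0355) for propiconazole and 0.0159 (SE 0.0374) for triadimefon, given without a test.

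The second Fbln1 probe set did not show the lower level. It averaged -0.198 ± 0.0371 (SD, n = 6) in Control, and the means of the 6 exposed groups ran from -0.202 to -0.164. The statement that Fbln1 read lower at high dose therefore rests on 1 of its 2 probe sets. Both lay below bioB on all 31 arrays.

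The genes whose leading probe set followed that of Fbln1 most closely over the 31 arrays, of 14216 others, were Atxn1 (Pearson r = 0.705), Rfwd3 (0.686), Zfp629 (0.67), Slc2a8 (0.663) and Prr36 (0.644). Over the 26 arrays of smaller actin gap the r of Atxn1 was 0.636 and that of Prr36 0.424. No other gene of the 9 followed Fbln1 so closely. Its r with Hmcn2 was 0.384 and that with Fn1 was -0.457, across arrays that share groups and the same normalization, and these values are descriptions.

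Fbln5, fibulin-5, takes part in the assembly of elastic fibres. Its Control mean was -0.195 ± 0.0286 (SD, n = 6). T500 arrays read -0.248, -0.188, -0.192 and -0.3 (-0.232 ± 0.0526) and T1800 arrays -0.157, -0.183, -0.15 and -0.189 (-0.17 ± 0.0193), with only the highest T500 and lowest T1800 arrays overlapping. The triadimefon dose step was 0.0621 (SE 0.0258, adjusted p = 1 by limma). Fbln5 thus did not follow Fbln1, and the pair had an r of -0.0677 over the 31 arrays.

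Fn1 encodes fibronectin, which cells assemble into fibrils through integrins and which the liver also secretes into plasma. Control arrays ran from -0.0552 to 0.0482 (-0.00209 ± 0.0412, n = 6). P2500 arrays read -0.118, 0.606, 0.545, 0.531 and -0.0312 (0.306 ± 0.35, n = 5). Replicates 02 to 04 lay above all the other 28 arrays, as 1.12% of all probe sets did, and the other 2 lay within or below Control. These 3 are the arrays with liver transcripts, whose 5 measured liver markers averaged 1.9 to 2 against -0.103 to 0.422 in Control.

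The dose step P2500 minus P500 was 0.351 for Fn1 (SE 0.0988, adjusted p = 0.22 by limma). Without the 3 liver arrays it was -0.0298 (SE 0.0536, adjusted p = 1), and the difference from Control went from 0.309 (SE 0.0892) to -0.0724 (SE 0.0505). The higher Fn1 mean of P2500 was therefore present only with those 3 arrays. Outside P2500 the highest Fn1 score was 0.214 in M2000 replicate 05, which also had the highest Alb score there (2.29) and an actin gap of 1.47. The other 4 M2000 arrays read -0.0629 to -0.025, and the 500 ppm groups averaged -0.0431 ± 0.016 (M500), -0.0447 ± 0.0303 (P500) and 0.0107 ± 0.0591 (T500).

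**Figure D3:**
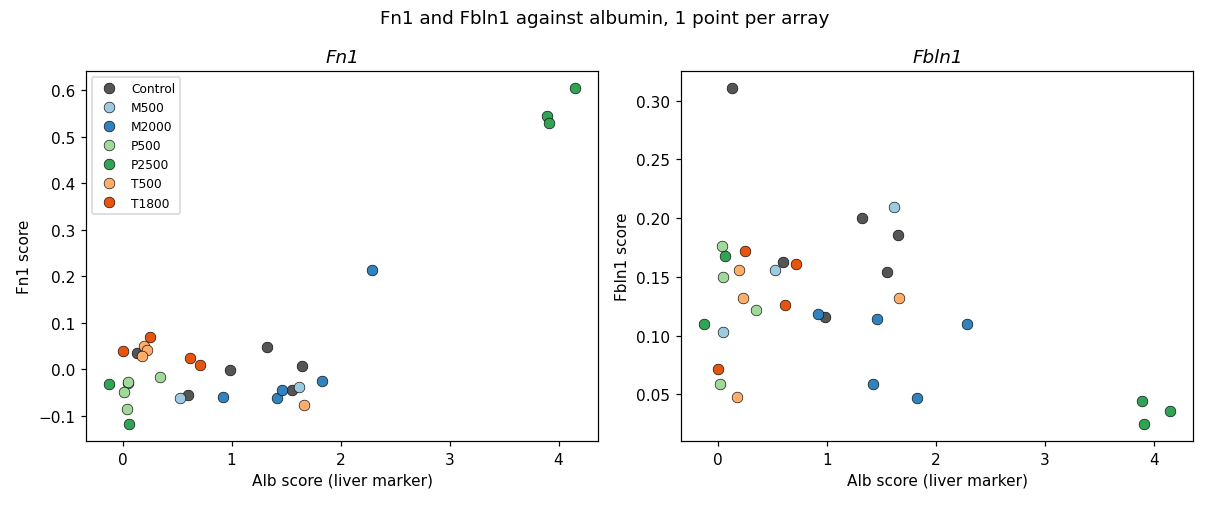
Score of Fn1 (left) and Fbln1 (right) on the y axis against the score of Alb, a liver marker, on the x axis, 1 point per array and 1 colour per group. The 3 P2500 arrays with Alb from 3.89 to 4.15 have the 3 highest Fn1 scores and the 3 lowest Fbln1 scores, and M2000 replicate 05 (Alb 2.29) has the next highest Fn1 score.

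Sparc, also called osteonectin, is a calcium-binding glycoprotein that binds collagens and is made by Sertoli, peritubular and stromal cells. Its Control scores ran from 0.977 to 1.28 (1.15 ± 0.133, n = 6). T1800 arrays read 1.3, 1.36, 1.36 and 1.45 (1.37 ± 0.061, n = 4). All 4 lay above every Control array, as 1.13% of all probe sets did, and the second Sparc probe set showed the same separation on normalized scores (1.06 ± 0.228 in Control and 1.34 ± 0.0365 in T1800). On the scores as deposited the second set overlapped, with T1800 replicate 03 at 1.23 and Control replicate 02 at 1.26, and on the leading set replicate 02 of each group read 1.28. The difference of the leading probe set was 0.219 (SE 0.0823) and is not tested, as T1800 took part in choosing the group.

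Some arrays of large actin gap had low normalized Sparc scores. The 2 lowest Control arrays, 0.977 and 1.01, were replicates 02 and 06 with their large actin gap, and T1800 held no such array. On the second probe set 4 of the 5 large-gap arrays lay below all the other 26, a pattern whose share over all probe sets was not counted. Other readings differed. M2000 replicate 05 (gap 1.47) had the highest leading Sparc score of its group (1.25). On the scores as deposited Control replicate 02 read 1.28, the highest in Control. The T1800 difference was 0.169 (SE 0.0781) with the gap as a covariate, 0.142 (SE 0.0706) without the 5 arrays and 0.125 (SE 0.0527) with array weights. Sparc thus read higher in T1800 in each of these settings, by a smaller amount.

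On the leading probe set the Sparc arrays at 500 ppm of triadimefon were divided, with 1.37 and 1.3 in replicates 01 and 02 and 1.03 and 0.999 in replicates 03 and 04 (1.17 ± 0.187). The second probe set did not divide them so, at 1.3, 1.34, 1.29 and 1.07 (1.25 ± 0.121), 3 of 4 above every Control array. Its difference from Control was 0.188 (SE 0.0913, unadjusted p = 0.049, adjusted p = 0.65 by limma). The step to T1800 on the leading set was 0.195 (SE 0.0901, unadjusted p = 0.039, adjusted p = 1 by limma), and on the mean of both probe sets it was 0.141 (SE 0.087). P500 arrays read 1.1, 0.98, 1.11 and 0.847 (1.01 ± 0.125), all below the Control mean on the leading set, and P2500 arrays 1.31, 1.16, 1.31, 1.27 and 0.906 (1.19 ± 0.171). The propiconazole step was 0.18 (SE 0.0855, unadjusted p = 0.045, adjusted p = 1), 0.0988 (SE 0.113) without the 3 liver arrays and 0.133 (SE 0.0826) on the mean of both probe sets. On the second set P500 averaged 1.08 ± 0.0578, with 3 of 4 arrays above the Control mean of 1.06. Sparc in M500 (1.05 ± 0.0774) and M2000 (1.1 ± 0.108) stayed within the Control range or just beneath it.

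Of the neighbouring fibroblast genes, Dcn averaged 0.629 ± 0.124 in Control and 1.32 ± 0.038 in T1800, Col1a1 0.651 ± 0.0931 and 1.09 ± 0.188, and Col6a2 0.0716 ± 0.0663 and 0.245 ± 0.0334. All 6 fibroblast markers (Dcn, Lum, Col1a1, Col1a2, Col3a1 and Pdgfra) were measured, and their mean score was 0.322 to 0.658 over Control arrays, 0.819 to 0.952 over T1800 arrays and 0.545 to 0.997 over T500 arrays. Some arrays of M500, M2000 and P2500 also exceeded every Control array, up to 1.11 in M2000 replicate 05. Dcn and collagens in T1800 took part in choosing the group, so the higher list there follows in part from that choice. The higher Sparc score of T1800 stood beside this higher fibroblast list, whose part in it was not tested. Among animals whose number begins with 3, Sparc averaged 1.19 ± 0.151 in Control (n = 3) and 1.39 ± 0.0477 in T1800 (n = 3), a difference of 0.204 (SE 0.0762). These Control arrays read 1.28, 1.01 and 1.27. The 1.01 was replicate 06, of large actin gap (1.63), so the difference rests in part on that array.

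Hmcn2 encodes hemicentin-2, a very large matrix protein of the fibulin family that is related to a linker of neighbouring basement membranes. Its Control arrays ran from 0.155 to 0.259 (0.22 ± 0.0387, n = 6). P2500 arrays read 0.074, 0.106, 0.126, 0.166 and 0.174 (0.129 ± 0.0417, n = 5), of which 3 lay below every Control array. P500 arrays read 0.223, 0.191, 0.249 and 0.202 (0.216 ± 0.0256), all above every P2500 array, a separation in this direction that 0.809% of all probe sets showed. The dose step was -0.0873 (SE 0.0243, unadjusted p = 0.0013, adjusted p = 0.21 by limma), and the difference from Control, given without a test, was -0.0912 (SE 0.0219).

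The P2500 arrays without liver transcripts were replicates 01 and 05. Replicate 01, where Alb was 0.0616, had the lowest Hmcn2 score of the group (0.074). Replicate 05 (0.174) lay below every P500 array but within the Control range of 0.155 to 0.259. Without replicates 02 to 04 the dose step was -0.0923 (SE 0.0324) and the difference from Control -0.0963 (SE 0.0305). Both rest on these few arrays, and the step did not pass the threshold. Hmcn2 in the other groups stayed near Control, at 0.255 ± 0.0315 in M500, 0.204 ± 0.0357 in M2000, 0.208 ± 0.0271 in T500 and 0.187 ± 0.0295 in T1800. The score lay below bioB on all arrays.

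Lamc1 encodes the laminin gamma-1 chain, the partner in most laminin trimers. Control arrays read 0.322 to 0.384 (0.344 ± 0.0227, n = 6). M500 arrays read 0.29, 0.308 and 0.303 (0.3 ± 0.00918) and P500 arrays 0.311, 0.289, 0.295 and 0.308 (0.3 ± 0.0105). Every M500 and every P500 array lay below every Control array, as 0.889% and 0.235% of all probe sets did, whereas T500 (0.336 ± 0.0297, n = 4) overlapped Control. That separation was of normalized scores: on the scores as deposited M500 replicate 04 (0.368) and P500 replicate 01 (0.33) lay above the lowest Control array (0.315), and both groups overlapped it. The difference was -0.044 in M500 (SE 0.0212, unadjusted p = 0.048, adjusted p = 0.55 by limma) and -0.044 in P500 (SE 0.0193, unadjusted p = 0.031, adjusted p = 1).

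The Lamc1 means of the high-dose groups lay near Control, with 0.343 ± 0.0456 in M2000, 0.361 ± 0.0231 in P2500 and 0.344 ± 0.0198 in T1800. The propiconazole step was 0.061 (SE 0.0201, unadjusted p = 0.0053, adjusted p = 0.52). On the second Lamc1 probe set P500 was again lower on average (-0.0913 ± 0.0413 against -0.0559 ± 0.0218 in Control), with overlap, but M500 was not (-0.0532 ± 0.0209). The actin gap averaged 1.14 ± 0.213 in P500 and 1.08 ± 0.455 in M500 against 1.12 ± 0.408 in Control, and with the gap as a covariate the P500 difference was -0.0444 (SE 0.0191). The 7 peritubular and smooth muscle markers averaged 0.388 to 0.476 over M500 arrays and 0.4 to 0.523 over P500 arrays, against 0.473 to 0.55 in Control, and the 7 measured Sertoli cell markers of 10 averaged 0.598 to 0.691, 0.699 to 0.716 and 0.672 to 0.73. Their part in the Lamc1 difference was not tested.

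Nid1, nidogen-1, and Lamb1, the laminin beta-1 chain, separated the arrays with a large actin gap from the rest. The leading Nid1 probe set read 0.764 to 1.01 (median 0.93) on the 5 arrays with a large actin gap and 0.406 to 0.653 (median 0.554) on the other 26, with no overlap. Lamb1 read 0.156 to 0.273 (median 0.204) on those 5 arrays and -0.0551 to 0.154 on the other 26. Among all probe sets 4.72% lay higher on all 5 arrays than on all the others and 4.18% lower. The second Nid1 probe set went the other way, at -0.0743 to 0.0433 on the 5 arrays against 0.0343 to 0.206 with a slight overlap, so the 2 Nid1 probe sets read in opposite directions on these arrays.

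**Figure D4:**
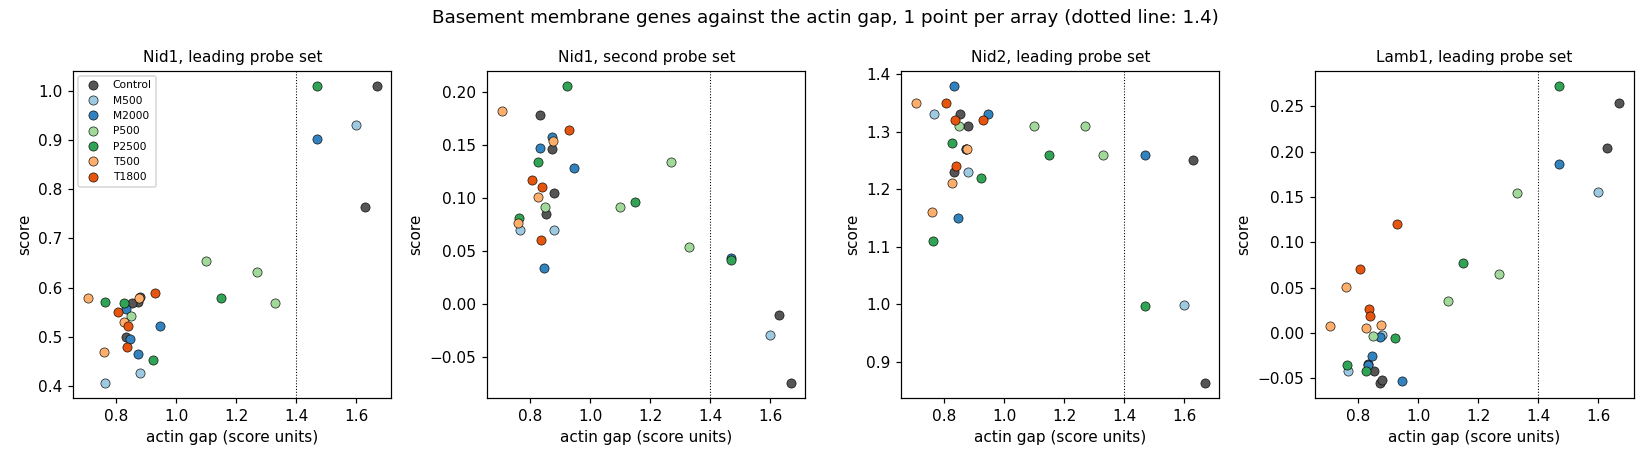
Score (y axis) of both Nid1 probe sets, Nid2 and Lamb1 against the actin gap (x axis, score units), 1 point per array and 1 colour per group, with a dotted line at 1.4. The 5 arrays right of the line have the highest leading Nid1 scores (0.764 to 1.01) and the highest Lamb1 scores (0.156 to 0.273).

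Nid1 and Lamb1 had a Pearson r of 0.821 over the 31 arrays and of 0.261 over the 26 arrays of smaller gap. Nid2, nidogen-2, read 0.863 to 1.26 (median 0.999) on the 5 arrays and 1.11 to 1.38 on the rest, and its r with Nid1 went from -0.646 to 0.269. These are normalized scores. On the scores as deposited Nid2 read 1.01 to 1.32 on the 5 arrays and 1.12 to 1.44 on the rest, so its lower level there was largely absent before normalization. Without those 5 arrays the correlations among these basement membrane genes were thus weak, as a description with no test. By group, Nid1 averaged 0.666 ± 0.192 in Control and 0.535 ± 0.0456 (T1800) to 0.636 ± 0.216 (P2500) in the exposed groups. Lamb1 averaged 0.0458 ± 0.143 in Control and 0.0138 ± 0.0983 (M2000) to 0.0631 ± 0.0668 (P500) elsewhere. Nid2 averaged 1.21 ± 0.173 in Control and 1.17 ± 0.118 (P2500) to 1.31 ± 0.0466 (T1800) elsewhere. Every group of these 3 genes overlapped Control, and no tested difference reached an unadjusted p of 0.05.

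The Lamb1 values depended on the arrays of large actin gap, of which Control held 2 (0.254 and 0.204). The other 4 Control arrays read -0.0551 to -0.034, below all 4 T1800 arrays (0.0705, 0.12, 0.0263 and 0.0186). They also lay below all 4 T500 arrays (0.00525 to 0.0506) and all 4 P500 arrays (-0.00268 to 0.154). The share of all probe sets separated in this way was not counted, so these separations cannot be set against a background. Without the 5 arrays, 198 probe sets passed an adjusted p of 0.05 by limma in P500 minus Control and 2 in T500 minus Control, and Lamb1 was not among them. The T1800 difference of Lamb1 from Control, given without a test, was 0.0131 (SE 0.0638) over all arrays, 0.105 (SE 0.0291) without the 5 arrays and 0.103 (SE 0.0245) with the gap as a covariate. The T500 difference of Lamb1 went from -0.0276 (SE 0.0638) to 0.0641 (SE 0.0291, adjusted p = 0.62 by limma) without the 5 arrays. That of P500 went from 0.0173 (SE 0.0638) to 0.109 (SE 0.0291, adjusted p = 0.064). With the gap as a covariate the P500 difference was 0.0128 (SE 0.0235, adjusted p = 0.96). The T500 difference was then 0.0828 (SE 0.025, adjusted p = 0.35). None of these differences passed the threshold. In replicate order the P500 arrays had gaps of 0.85, 1.1, 1.27 and 1.33 and Lamb1 scores of -0.00268, 0.0359, 0.065 and 0.154. The larger P500 difference was thus not seen with the gap as a covariate, and the part of the gap in it was not tested.

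In the wider matrix, over lists that include the 9 genes, no listed gene was called either. Of the 23 basement membrane genes listed 21 were measured, of 19 elastic fibre and fibulin genes 18, of 15 fibronectin-network and matricellular genes 13, of 18 matrix receptors 17 and of 14 proteases and inhibitors 12, and none passed an adjusted p of 0.05 in any of the 10 tested comparisons. At an unadjusted p under 0.05, M500 against Control (9% of all probe sets) held 2 lower basement membrane genes (1 of them Lamc1), 1 higher elastic fibre gene, 1 lower receptor and 1 higher protease inhibitor. P500 against Control (3.36%) held 1 lower basement membrane gene (Lamc1) and none in the other 4 lists. T500 against Control (7.62%) held 1 lower basement membrane gene, 1 higher and 1 lower elastic fibre gene (the lower being Fbln1), 1 higher matricellular gene, no receptor, and 3 higher and 1 lower protease or inhibitor. The median difference of the basement membrane list was -0.0258 in M500, -0.00628 in P500 and -0.00172 in T500. Over all 5 lists and the 3 comparisons the medians ran from -0.0258 to 0.0276, the highest being that of the fibronectin network in T500.

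In each list the gene with the smallest p against Control was taken. Col4a1, a collagen IV chain that nidogens tie to laminin, averaged 0.449 ± 0.069 in M500 (n = 3) and 0.572 ± 0.0249 in Control (n = 6), a difference of -0.123 (SE 0.0266, unadjusted p = 8.9e-05, adjusted p = 0.11 by limma) with 3 of 3 arrays below the Control mean. It was 0.512 ± 0.043 in T500 (adjusted p = 0.61). Mfap4, a microfibril-associated protein that binds elastic fibres, averaged -0.141 ± 0.0723 in T500 against -0.288 ± 0.0752 (difference 0.146, SE 0.0447, adjusted p = 0.52), and Mfap5, a microfibril component, 1.02 ± 0.127 in M500 against 0.875 ± 0.114 (adjusted p = 0.55).

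Sparcl1, a relative of Sparc, averaged 0.639 ± 0.017 in T500 against 0.515 ± 0.078 in Control (difference 0.124, SE 0.0422, adjusted p = 0.56 by limma) and 0.462 ± 0.0271 in P500 (adjusted p = 1). Smoc1, another calcium-binding relative, averaged 0.453 ± 0.0315 in M500 against 0.377 ± 0.0889 (adjusted p = 0.58). Among receptors, the syndecan Sdc4 averaged 0.886 ± 0.02 in M500 against 1.01 ± 0.104 (adjusted p = 0.43), dystroglycan (Dag1) 0.823 ± 0.0151 in P500 against 0.86 ± 0.0348 (adjusted p = 1) and the integrin chain Itga9 0.0655 ± 0.0232 in T500 against 0.0157 ± 0.0706 (adjusted p = 0.68). Among proteases and inhibitors, the inhibitor Timp2 averaged 2.05 ± 0.0346 in M500 against 1.89 ± 0.135 (adjusted p = 0.53), Mmp23 0.245 ± 0.0498 in T500 against 0.172 ± 0.0523 (adjusted p = 0.58) and Mmp9 -0.0898 ± 0.0628 in P500 against -0.15 ± 0.0956 (adjusted p = 1). None of these differences passed the threshold.

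In the propiconazole dose step, at an unadjusted p under 0.05 (3.83% of all probe sets), the basement membrane list held 2 higher and 2 lower genes, the elastic fibre list 1 lower, the fibronectin network 3 higher, the receptors 2 higher and the proteases 1 higher. The fibronectin network includes Fn1 itself, and the P2500 side includes the 3 arrays with liver transcripts.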

How the data were processed

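Scores of 34 labelled testis arrays were deposited by the authors as 1 value per probe set; 31 arrays hold values, and 3, which the labels say were not part of the final analysis, were not used. The probe summary and normalization behind them are not stated in the labels; array medians of the deposited scores ran from -0.00914 to 0.0558. Of 31099 probe sets, 57 controls were left out and 31042 tested; 20826 had 1 gene symbol in the platform annotation, 436 several and 9780 none. Per the labels, RNA was copied from an oligo-dT primer. Scores were quantile normalized and fitted with 1 mean per group over all arrays (limma 3.58.1, lmFit and eBayes, R 4.3.3), with Benjamini-Hochberg adjustment and a threshold of 0.05; the script was tested on simulated data. The number of arrays limits precision: the median SE of a 500 ppm difference with Control was 0.0348 to 0.0382. A gene's leading probe set has its highest mean score. Named genes were the 9 members, the smallest p per pathway list and 500 ppm group, the 5 genes most like Fbln1, and Dcn, Col1a1 and Col6a2. The members and lists were chosen with earlier results of these data known. Alternatives were the deposited scores, array weights, the actin gap, blocks, a filter on dim probe sets, all probe sets of a gene and fewer arrays. The replicate number and animal number came from the labels, with each array from 1 animal.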

Additional observations from a re-analysis of the deposited data

Results flagged for a closer look

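Of 78 sets of 4 to 6 arrays checked (1 probe set in 1 group), 9 held an array far from the others of its group by Dixon's test; chance alone marks about 1 in 20. In M2000, replicate 05 stood high for Fn1 (0.214, next array -0.025), Nid1 (0.902, next 0.557) and Lamb1 (0.187, next -0.00481); its actin gap was 1.47. In P2500, replicate 05 stood high for Nid1 (1.01, next 0.579), also with a gap of 1.47. Control replicate 02, with a gap of 1.67, stood low for Nid2 on normalized scores (0.863, next 1.23), but close to the next array on the scores as deposited (1.13, next 1.17). The other 4 values came from 3 arrays with gaps of at most 1.4. In P500, replicate 04 was low for Nid2 (1.26, next 1.31). In T500, replicate 04 was low for the second Sparc probe set (1.07, next 1.29) and high for Lamb1 (0.0506, next 0.00875). In T1800, replicate 03 was low for the second Sparc probe set (1.28, next 1.35). The part of RNA quality in these values was not tested.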

How the results depend on the processing

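No gene of the 9 was called in any of the 10 tested comparisons in most settings; the exceptions were all in P2500 minus P500. With array weights 3 were called there (Fn1 0.525, adjusted p = 6e-07; Sparc 0.233, adjusted p = 0.047; Lamc1 0.0626, adjusted p = 0.026), beside 855 probe sets in all. Without arrays of an actin gap above 1.4, 2 were called (Fn1 0.436, adjusted p = 0.0093; Hmcn2 -0.0985, adjusted p = 0.036), beside 426 in all. Leaving out 1 array at a time gave 0 to 1 called, Fn1 without P2500 replicate 01 (0.457, adjusted p = 0.0032) or without replicate 05 (0.436, adjusted p = 0.011). Replicates 01 and 05 are the P2500 arrays without liver transcripts. Without the arrays with liver transcripts 0 of the 9 genes were called, with only replicates 01 and 05 left in P2500. In that setting Fn1 in P2500 minus P500 turned to -0.0298, Fn1 in P2500 minus Control to -0.0724, and Fbln1 in P2500 minus P500 to 0.0127. Fbln1 in M500 minus Control turned to 0.0378 with array weights and to 0.0276 without arrays of an actin gap above 1.4. Fbln1 in T500 minus P500 turned to 0.00115 on the scores as deposited, 0.0021 with the actin gap as a covariate, 0.0028 on the mean of all probe sets, and ran from -0.0325 to 0.0133 as single arrays were left out (0.0067 without P500 replicate 01, 0.0133 without T500 replicate 03). The cause was not tested. The replicate numbers did not pair the animals: 7 of 31 arrays were closest to an array of their own number, and same-numbered arrays had a median correlation of 0.0388 against 0.0372 for the others. With the replicate block 0 of the 9 genes were called. Of 71 further differences of these genes, 40 changed sign in some setting and 0 were called. The alternatives by animal number were chosen after seeing the data, and among animals whose number begins with 2 Lamc1 in T1800 minus Control was -0.026. Most of these probe sets measured below bioB, which limits what can be seen.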
